A study of Homo sapiens with 8 samples.

Results

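Cyclins, cyclin-dependent kinases (CDKs) and the proteins that hold CDKs in check were followed through a RIP-chip experiment in A431 cells, an established human line of cutaneous squamous cell carcinoma. A list of 48 such genes was looked up by RefSeq accession among the array probes, and a gene was kept if the 4 input arrays all showed one of its probes well above background, the brightest such probe standing for it. This kept 44 of the 48 genes, out of 13663 genes measured in all. CCND2, CDKN2B, CCNT2 and CDK14 had no probe that passed. The cells had been transfected with miR-NC, a negative control miRNA, or with miR-634, each at 10 nM, and were lysed after 24 h. RNA was taken either with an antibody against AGO2 (RIP) or as total RNA (input), which gave an input and a RIP group for each miRNA, 4 groups of 2 arrays in all. The labels name normal rabbit IgG as the antibody of the input arrays, whereas the methods call them total RNA, and they are treated here as input. Nothing says that the duplicates came from separate transfections, so the p-values measure the spread between these arrays, which may be technical. miR-634 was supplied from outside at a dose set by the transfection, and its level on AGO2 was not measured by these arrays.

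AGO2 is the protein of the RNA-induced silencing complex that holds a miRNA and, through it, the mRNAs to which the miRNA pairs. A miRNA recognizes an mRNA mainly by its seed, the bases 2 to 8 from its 5′ end, and the bound mRNA is then translated less or degraded. Cyclins are the regulatory subunits that switch on CDKs. D-type cyclins with CDK4 and CDK6 act in G1 on the retinoblastoma protein, cyclin E with CDK2 drives entry into S phase, cyclin A works through S and G2, and cyclin B with CDK1 starts mitosis. The INK4 and CIP/KIP inhibitors block these kinases, CDC25 phosphatases activate them, and WEE1 and PKMYT1 keep CDK1 off. A second branch of the family, with cyclins H, T, K and L, phosphorylates RNA polymerase II or works in splicing.

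The sequence that sets which mRNAs miR-634 can pair with is shown because every change below follows its transfection. It is 22 bases long in the RefSeq table of GRCh38.p14, on the plus strand of chromosome 17 from 66787132 to 66787153, inside the span of the protein kinase gene PRKCA (66302613 to 66810743). Capitals mark the seed.
hsa-miR-634: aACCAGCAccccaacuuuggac
Among 2370 mature miRNA names in that table, 1 carried this seed, miR-634 itself. An mRNA site pairing with the whole seed reads UGCUGGU from 5′ to 3′. Sites in the members' mRNAs were not counted, since no transcript sequences were used here.

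A level is given below as the log2 intensity of a gene's probe minus the 75th percentile of its array, taken over the probes well above background on all 8 arrays. Enrichment is the RIP level minus the input level, and the fold change of enrichment sets miR-634 cells against miR-NC cells by the difference of their enrichments, all on the log2 scale. The limma test was fitted to the 4 group means, and a difference was called at a Benjamini-Hochberg adjusted p under 0.05 over all 13663 genes. Duplicates lay close together, with a median SD per gene between 0.04 and 0.08 in the 4 groups. The share of spots well above background was 45.6% to 45.8% on the input arrays, 33.6% and 34.5% for RIP of miR-NC cells, and 40.0% on both RIP arrays of miR-634 cells. Input and RIP arrays, and miR-NC and miR-634 arrays, took separate rows and columns of 1 slide, so position and group cannot be told apart. All 14 squamous epithelial markers, EGFR and the keratins among them, were above background on all 8 arrays. Of 13 markers of other cell types, CD14, VWF, ACTA2 and PMEL passed the filter, and CD3E, PECAM1, COL3A1 and MLANA were above background on 0 arrays. Of the 44 kept genes, 41 were above background on all 8 arrays. CDK12, CCNG2 and CDK17 were not well above background on either miR-NC RIP array, so their enrichment in miR-NC cells is a bound (CDK12 at least 2.83-fold lower in RIP than in input) or, for CCNG2 and CDK17, has no fold.

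In control cells, most mRNAs of the regulators from G1/S to mitosis were richer in the AGO2 fraction than in the input. By their brightest probe, most mRNAs of the transcriptional branch were poorer. Both are positions on the percentile scale, and on spike-in probes 0 members were called richer. In miR-NC cells, enrichment was called higher for 21 members against 27.2% of all genes, and lower for 20 members against 43.4% of all genes. Its median was 0.18 over the members and -0.21 over all genes. All 6 G1/S genes were enriched, with a median of 1.49, and so were both S and G2 genes and 6 of the 8 G2/M genes (median 0.71). The most enriched were CCNE1 (cyclin E1) at 2.74 ± 0.05 (SE, n = 2 arrays a group), WEE1 at 2.52 ± 0.06, CCNA2 (cyclin A2) at 2.49 ± 0.05 and CDKN1B (the inhibitor p27) at 2.18 ± 0.21. CCNE1 thus stood 6.69-fold higher in the AGO2 fraction than in the input. The kinases CDK1 (-0.95 ± 0.05) and CDK6 (-1.84 ± 0.08) were lower in RIP than in input, while the cyclins CCNB2 (0.82 ± 0.05) and CCND1 (0.81 ± 0.05) were higher. In the transcriptional group, 8 of 11 genes were lower in RIP than in input by their brightest probe, with a median of -0.73. Among them were CDK12, whose value is the bound above, and CCNH (cyclin H, partner of CDK7) at -1.35 ± 0.10. CDK9 (-0.23) stood near the median of all genes. Other passing probes read 0.37 for CCNK, 0.31 and 0.59 for CDK13, and -0.07 and 0.11 for CCNL2. Both of these CDK13 probes were well above background on only 1 miR-NC RIP array. With the mean of a gene's probes, CCNK (-0.18) and CCNT1 (-0.50) were still called lower, though a second CCNT1 probe was not well above background on either miR-NC RIP array. CCNL2 (-0.17) and CDK13 (0.04) were not. All of these are positions relative to the percentile of each array. Scaled on 8 spike-in probes, the median gene stood at -2.79 in miR-NC cells, 40 members were called lower in RIP and 0 were called higher by limma (also 0 at an unadjusted p under 0.05). Of all 13663 genes, 13435 were called lower on that scale and 51 higher.

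After miR-634, members enriched in control cells were mostly still enriched, while single members moved. In miR-634 cells, enrichment was called higher for 17 members against 31.2% of all genes, and lower for 20 members against 46.4%, with a median of -0.07 over the members and -0.24 over all genes. Across the 44 members, enrichment in miR-634 cells correlated with that in miR-NC cells at r = 0.76, and across all genes at r = 0.57. These correlations are across genes on the same 8 arrays, and genes are not independent replicates. WEE1 (2.46 ± 0.06), CCNE1 (2.11 ± 0.05) and PKMYT1 (1.96 ± 0.06) stayed among the most enriched, now together with CDK9 (2.79 ± 0.05) and CCNB1 (2.47 ± 0.05).

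**Figure D1:**
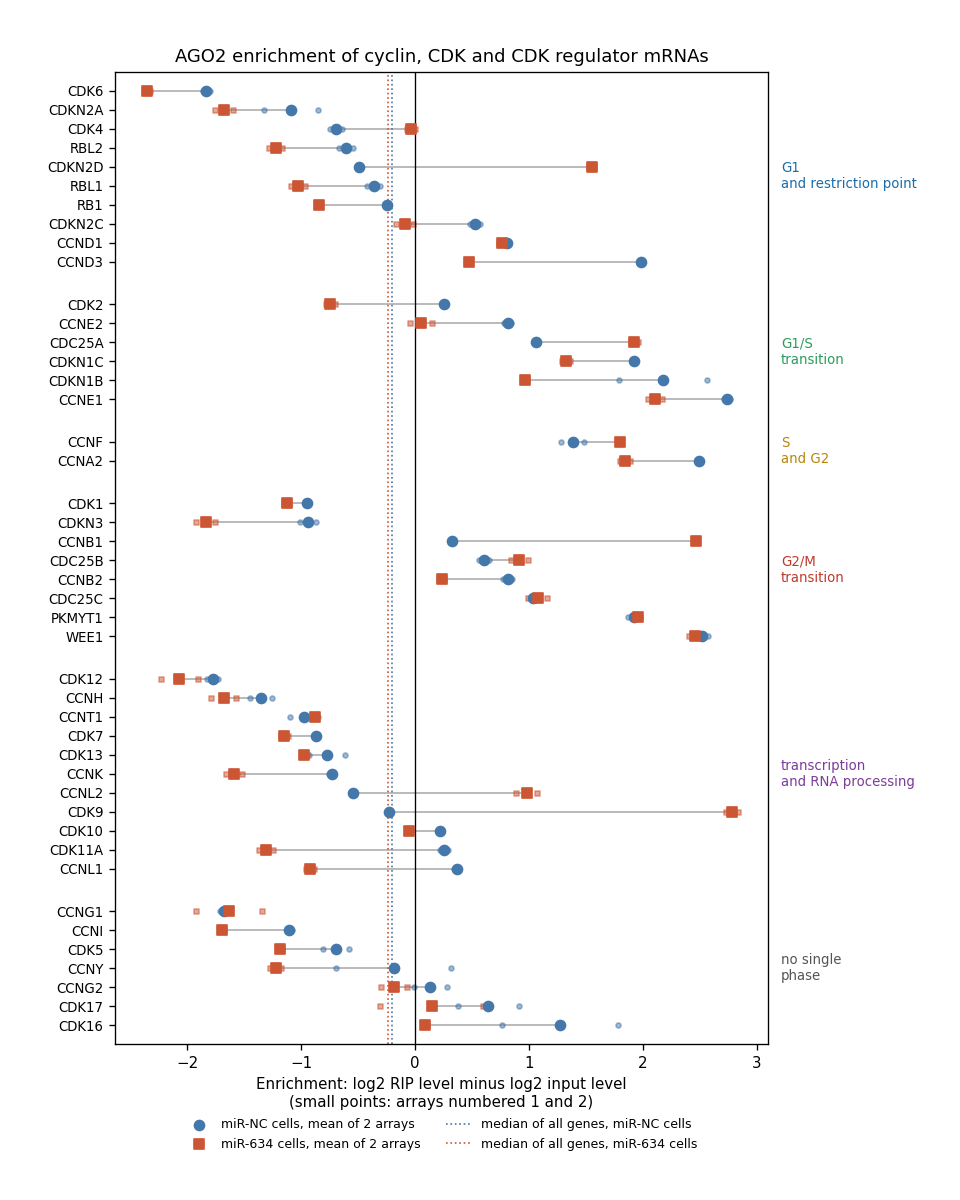
Enrichment (log2 RIP level minus log2 input level, horizontal axis) of the 44 kept genes, grouped by phase, in miR-NC cells (circles) and miR-634 cells (squares). Large symbols are means of 2 arrays a group, small symbols pair the arrays of one number, and dotted lines mark the medians of all genes at -0.21 and -0.24. CDK9, CCNB1, CDKN2D and CCNL2 (by its brightest probe only) move far to the right after miR-634. All 6 G1/S genes lie right of 0 in miR-NC cells. The miR-NC circles of CDK12, CCNG2 and CDK17 rest on RIP signals not well above background.

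More members lost enrichment than gained it after miR-634. The fold change of enrichment was called higher for 7 members against 24.8% of all genes and lower for 23 members against 34.7% of all genes, and 14 members, CDK12, CCNG2 and CDK17 among them, were not called. Its median was -0.50 over the members and -0.18 over all genes, and single members ran from -1.56 to 3.02. The 7 that rose were CDK9, CCNB1, CDKN2D, CCNL2, CDC25A, CDK4 and CDC25B. CCNL2 rose by its brightest probe only, while its other passing probes read -0.20 and -0.37. The median gene itself moved with the scaling, from -0.18 here to -0.06 in the authors' processed values and 0.92 on the spike-in probes. Counted against the median gene, 8 members rose and 18 fell, beside 4042 and 3513 of all 13663 genes. On the spike-in scale, 21 members rose and 0 fell by limma (0 also at an unadjusted p under 0.05). Of all 13663 genes, 8262 rose and 176 fell on that scale. Every fall or lack of change reported below is thus relative to other mRNAs on the array. Without 1 array at a time, the calls of CDKN2A, CDKN1B, CDC25B, CDK7, CDK10 and CDK16 were lost in at least 1 fit. The other calls were kept.

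**Figure D2:**
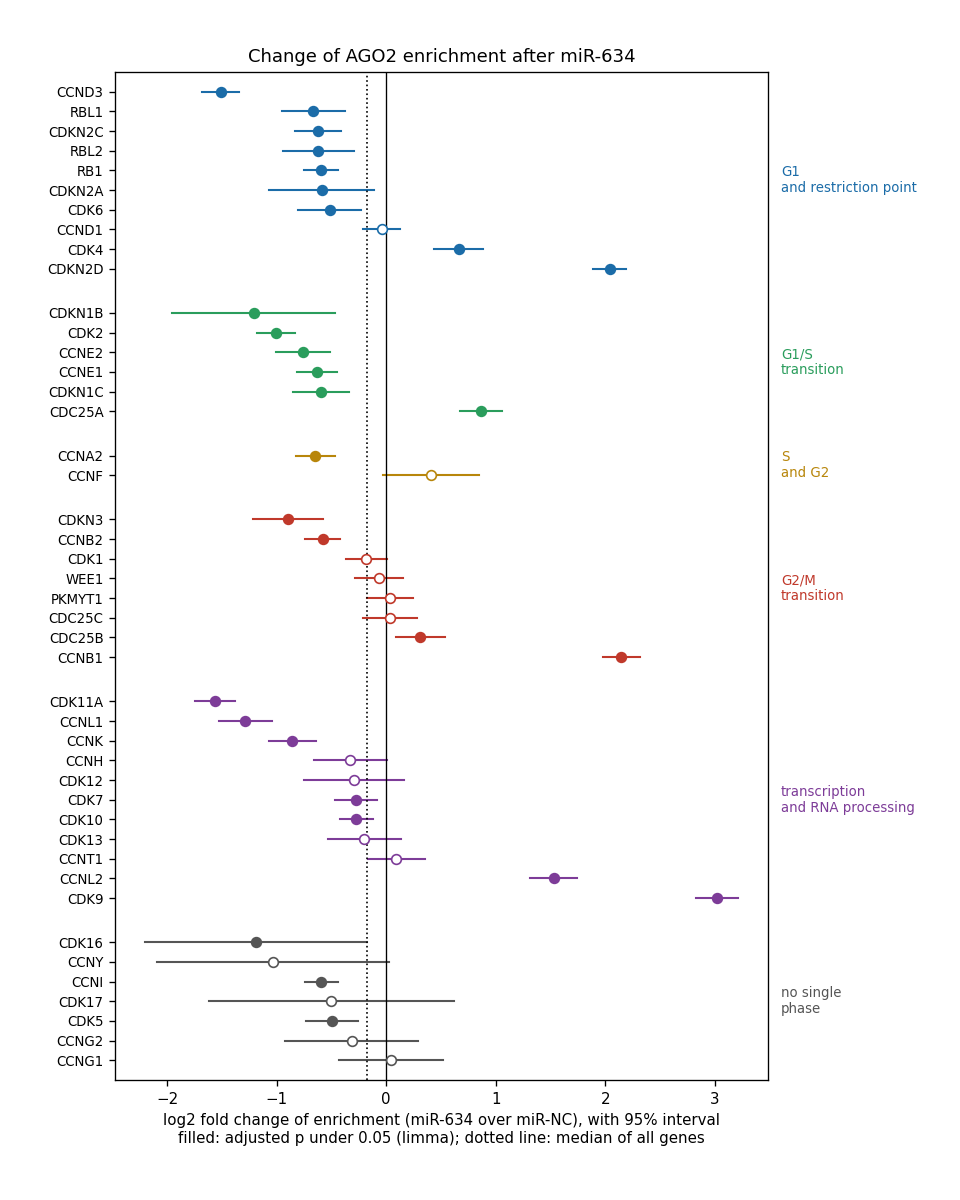
Fold change of enrichment (log2, miR-634 over miR-NC) of the 44 kept genes by phase, with 95% intervals from limma. Filled points passed an adjusted p of 0.05 against 0 on the percentile scale, and the dotted line is the median of all genes at -0.18. The falls depend on that scale, since no fall is called on the spike-in scale. The points of CDK12, CCNG2 and CDK17 rest on miR-NC RIP signals not well above background. CDK9 at 3.02, CCNB1 at 2.15 and CDKN2D at 2.04 stand far right, and CDK11A at -1.56 and CCND3 at -1.51 far left.

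Among the 10 measured G1 and restriction point genes, 2 rose and 7 fell, beside 24.8% and 34.7% of all genes. The median fold change of enrichment was -0.59. CCND3 encodes cyclin D3, an activator of CDK4 and CDK6. Its level was -0.45 and -0.52 on the miR-NC input arrays and 1.53 and 1.48 on the miR-NC RIP arrays. In miR-634 cells it stood at 0.12 and 0.11 in the input and 0.58 and 0.60 in the RIP. RIP exceeded input in both kinds of cells without overlap, but the RIP level dropped after miR-634 while the input level rose. The fold change of enrichment was -1.51 ± 0.07 (SE; adjusted p = 2.95e-05, limma), a 2.85-fold lower enrichment, made of an input rise of 0.60 ± 0.05 (adjusted p = 0.0031) and a RIP fall of 0.91 ± 0.05. CDKN2D encodes p19, an INK4 inhibitor of CDK4 and CDK6. Its level was -0.24 and -0.27 on the miR-NC input arrays and -0.73 and -0.75 on the miR-NC RIP arrays. With miR-634 its level became -0.31 on both input arrays and 1.26 and 1.22 on the RIP arrays. It thus went from below to above its input, with no input change called (-0.06 ± 0.04, adjusted p = 0.45), and its fold change of enrichment was 2.04 ± 0.06 (adjusted p = 9.9e-06, limma), or 4.12-fold. At this size it lay at percentile 96.3 of all genes.

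The other G1 members moved less. CDK4, the kinase that cyclin D activates, rose by 0.66 ± 0.09 in enrichment, from -0.69 in miR-NC cells to -0.03, whereas its relative CDK6 fell by 0.52 ± 0.12 from -1.84. The retinoblastoma protein RB1 and its relatives RBL1 and RBL2, which repress E2F genes until CDKs phosphorylate them, had fold changes of enrichment of -0.59, -0.66 and -0.62. A second RBL1 probe, for another transcript, was not well above background on either miR-NC RIP array and gives no fold change. The inhibitors CDKN2C (p18) and CDKN2A fell by 0.62 ± 0.08 and 0.59 ± 0.19. A second CDKN2A probe, for another transcript, was not well above background on any array. The CDKN2A call (adjusted p = 0.042, limma) was lost without any 1 of the input or miR-634 RIP arrays, at -0.64 to -0.54, and its value was -0.38 without the second miR-NC RIP array. Centered on the median gene, CDKN2A (-0.41) and CDK6 (-0.34, adjusted p = 0.052) were not called. CCND1, which encodes cyclin D1, was enriched in both kinds of cells, at 0.81 and 0.77, and its fold change of enrichment was -0.04 with a 95% interval of -0.21 to 0.13.

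The 6 G1/S genes, which had been enriched throughout in control cells, held 5 falls and 1 rise of enrichment, with a median of -0.69. Of all genes, 34.7% fell and 24.8% rose. CDK2, the kinase of cyclins E and A, had levels of -3.75 and -3.73 on the miR-NC input arrays and -3.50 and -3.47 on the miR-NC RIP arrays. After miR-634 its level was -3.55 and -3.54 in the input and -4.33 and -4.24 in the RIP. The RIP level was thus above the input level in miR-NC cells and below it in miR-634 cells, and the fold change of enrichment was -1.0 ± 0.07 (adjusted p = 0.00013, limma). On the spike-in scale this value was 0.10. CDKN1B, which encodes p27, an inhibitor of CDK2, had levels of -2.33 and -2.45 on the miR-NC input arrays and -0.54 and 0.11 on the miR-NC RIP arrays. In miR-634 cells it stood at -1.85 and -1.99 in the input and -0.90 and -1.0 in the RIP. The miR-NC RIP duplicates differed by more than for the other G1/S genes, and the fall of enrichment, -1.21 ± 0.30 (adjusted p = 0.016, limma), was not called without the second miR-NC input array (-1.15) or the first miR-634 input array (-1.14). A second CDKN1B probe read -1.77.

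CDKN1C encodes p57, the relative of p27. Its level was -3.02 and -2.88 on the miR-NC input arrays and -1.08 and -0.98 on the miR-NC RIP arrays. With miR-634 its level became -3.45 and -3.47 in the input and -2.09 and -2.18 in the RIP. Both fractions lay lower after miR-634 without overlap: input fell by 0.51 ± 0.07 (adjusted p = 0.012, limma), RIP fell by 1.1 ± 0.07, and the fold change of enrichment was -0.60 ± 0.10. CDC25A, the phosphatase that activates CDK2, rose in enrichment. Its level was -1.80 and -1.87 on the miR-NC input arrays and -0.73 and -0.81 on the miR-NC RIP arrays. After miR-634 its level was -2.52 and -2.51 in the input and -0.63 and -0.55 in the RIP. Its input fell by 0.68 ± 0.05 (adjusted p = 0.0031, limma), at percentile 1.92 of all genes, while its RIP level changed by 0.18 ± 0.05, which together gave a fold change of enrichment of 0.86 ± 0.08, or 1.82-fold. The larger share of this change lay in the input. The RIP change of CDC25A was called (adjusted p = 0.029, limma), but not with normexp (0.087), without a filter, or, at 0.14 to 0.18, without any 1 of the input arrays or the second RIP arrays, and it was 0.35 in the authors' processed values. The E-type cyclins CCNE1 and CCNE2 fell in enrichment by 0.63 ± 0.07 and 0.76 ± 0.10, and CCNE1 remained 4.32-fold enriched in miR-634 cells.

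The S and G2 genes were CCNA2 and CCNF. CCNA2, the cyclin of S and G2, fell in enrichment by 0.65 ± 0.07 from 2.49 to 1.84. CCNF (cyclin F, a subunit of a ubiquitin ligase) had a fold change of enrichment of 0.41 ± 0.18 that was not called (adjusted p = 0.093, limma). At G2/M, 2 of 8 genes rose and 2 fell, beside 24.8% and 34.7% of all genes. CCNB1, the cyclin B1 that activates CDK1 at mitosis, had levels of 2.12 and 2.16 on the miR-NC input arrays and 2.43 and 2.49 on the miR-NC RIP arrays. In miR-634 cells it stood at 2.06 and 2.03 in the input and 4.54 and 4.49 in the RIP. The miR-634 RIP arrays stood far above the other 6, while the input arrays of the 2 kinds of cells differed by little (-0.09 ± 0.05, adjusted p = 0.26, limma). The fold change of enrichment was 2.15 ± 0.07 (adjusted p = 1.1e-05), or 4.42-fold, and a second CCNB1 probe read 1.91. Its relative CCNB2 fell by 0.58 ± 0.06, and CDK1, the kinase of both, had a fold change of enrichment of -0.18 ± 0.07 that was not called (adjusted p = 0.082).

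WEE1 and PKMYT1, the kinases that hold CDK1 inactive, were strongly enriched in both kinds of cells on the percentile scale. On that scale they changed little: -0.07 for WEE1 (95% interval -0.29 to 0.15) and 0.03 for PKMYT1 (-0.18 to 0.24). On the spike-in probes their miR-NC enrichment was -0.06 and -0.66. The phosphatases that release CDK1 were enriched less. CDC25C stood at 1.04 and 1.08, a change of 0.04 ± 0.10, and CDC25B rose by 0.31 ± 0.09 (adjusted p = 0.028, limma), a call lost at 0.24 to 0.32 without any 1 of the miR-NC input, miR-634 RIP, second miR-NC RIP or second miR-634 input arrays. CDKN3, a phosphatase that acts on CDK1 and CDK2, fell by 0.90 ± 0.13 in enrichment with one probe and read -0.95 with the other.

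The transcriptional and RNA processing group held both the largest rise and the largest fall of the members. Of 11 measured genes, 2 rose and 5 fell, beside 24.8% and 34.7% of all genes, with a median of -0.27. CDK9 is the kinase of P-TEFb, which releases paused RNA polymerase II. Its level was -1.05 on both miR-NC input arrays and -1.29 and -1.27 on the miR-NC RIP arrays. With miR-634 its level became -1.26 and -1.28 in the input and 1.58 and 1.46 in the RIP. A position near the input in miR-NC cells (-0.23 ± 0.05) thus became 6.90-fold above it in miR-634 cells. The call below the input was lost when centered on the median gene (-0.03), with normexp (-0.12) and without either miR-NC input array (-0.23 in both fits). The fold change of enrichment was 3.02 ± 0.08 (adjusted p = 7.7e-06, limma), or 8.11-fold, at percentile 99.2 of all genes, and the input change of -0.22 ± 0.05 was not called (adjusted p = 0.055). CCNT1 (cyclin T1), the partner of CDK9 in P-TEFb, had a fold change of enrichment of 0.09 ± 0.10.

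Cyclins L1 and L2 and their kinase CDK11 work with the splicing machinery, and here their brightest probes separated. CCNL1 had levels of -2.77 and -2.72 on the miR-NC input arrays and -2.38 and -2.37 on the miR-NC RIP arrays. After miR-634 its level was -2.65 and -2.73 in the input and -3.53 and -3.69 in the RIP. From above its input it went below, a fold change of enrichment of -1.29 ± 0.10 (adjusted p = 0.00018, limma), and a second probe read -1.52. CCNL2 had levels of -1.88 and -1.90 on the miR-NC input arrays and -2.42 and -2.46 on the miR-NC RIP arrays. In miR-634 cells it stood at -2.14 and -2.11 in the input and -1.07 and -1.22 in the RIP. This probe went the other way, by 1.53 ± 0.09 (adjusted p = 6.5e-05, limma), but the other 2 CCNL2 probes, which carry the accession of another transcript, read -0.20 and -0.37, so the rise belongs to 1 of 3 probes. The mean of the 3 probes gave 0.32 (adjusted p = 0.032, limma). CDK11A had levels of 1.28 and 1.24 on the miR-NC input arrays and 1.50 and 1.52 on the miR-NC RIP arrays. With miR-634 its level became 1.53 and 1.56 in the input and 0.28 and 0.19 in the RIP, below every other array. Its fold change of enrichment was -1.56 ± 0.07 (adjusted p = 3.4e-05, limma), a 2.96-fold lower enrichment, and its other probes read -1.36 and -1.75. CDK11B, a near-identical copy with which probes may share RNA, read -1.58 ± 0.07, so the gene behind the fall is uncertain.

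In the rest of this branch, CCNK (cyclin K), the activator of CDK12 and CDK13, fell in enrichment by 0.86 ± 0.09 (adjusted p = 0.00049, limma), and a second CCNK probe read -1.21. CDK13 had a fold change of -0.20 that was not called. CDK12, with no miR-NC RIP signal well above background, has no fold change here. CDK7, the kinase that activates other CDKs, fell by 0.27 ± 0.08, and its cyclin CCNH had a fold change of -0.33 ± 0.13 that was not called (adjusted p = 0.084, limma). The CDK7 call was lost at -0.29 to -0.23 without any 1 of the miR-NC input, second RIP or first miR-634 input arrays. CDK10 fell by 0.27 ± 0.06, a call lost without the second miR-NC input array (-0.26). Centered on the median gene, CDK7 and CDK10 both read -0.10 and were not called. On the spike-in scale both were called as rises, at 0.82 and 0.83 (adjusted p = 0.025 and 0.0235, limma).

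Of the 7 measured genes with no single phase, 3 fell in enrichment, beside 34.7% of all genes. CDK16, a kinase of the PCTAIRE family, had levels of 2.38 and 3.33 on the miR-NC input arrays and 4.17 and 4.10 on the miR-NC RIP arrays. After miR-634 its level was 3.41 and 3.42 in the input and 3.51 and 3.49 in the RIP. The first miR-NC input array stood apart from the other 3 input arrays. The fold change of enrichment, -1.19 ± 0.41 (adjusted p = 0.049, limma), became -0.72 without that array and was not called without any 1 of the RIP or miR-634 arrays (-1.22 to -1.15). CCNY (cyclin Y), which activates CDK16, had a fold change of -1.04 ± 0.42 that was not called (adjusted p = 0.083). Its miR-NC RIP levels were -2.25 and -3.20, and the fold change was -0.56 without the first of these arrays and -1.51 without the second, both called by limma. CCNI (cyclin I) fell by 0.59 ± 0.06 and CDK5, a kinase best known from neurons, by 0.49 ± 0.10. CCNG1 (cyclin G1) read 0.05 with its brightest probe and -0.91 with another. CCNG2 and CDK17 have no fold change, since neither miR-NC RIP array showed them well above background.

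**Figure D3:**
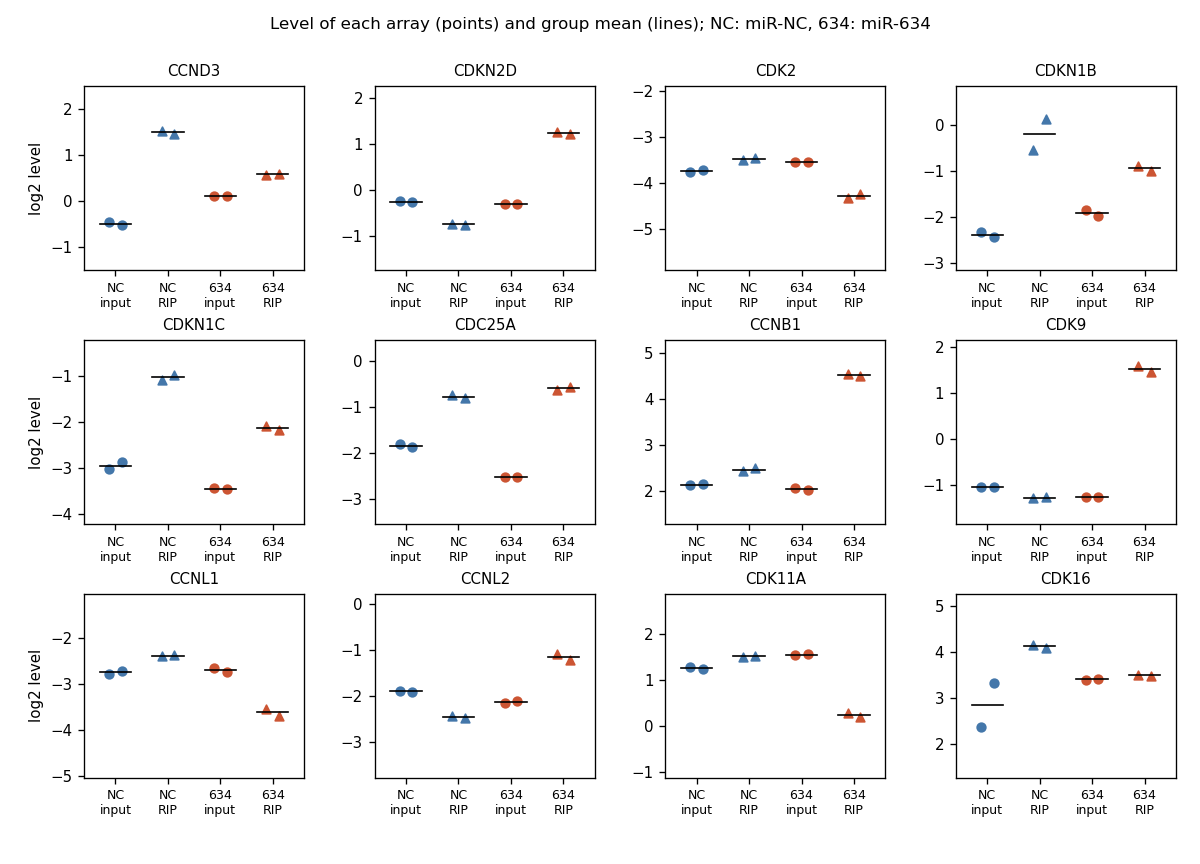
Log2 level (scaled to the 75th percentile of the array) on each of the 8 arrays for the 12 members with a called fold change of enrichment of at least 1 in size or a called input change of at least 0.5 in size. Points are arrays, lines are means of 2 arrays, and each panel spans the same range of log2 units. The miR-634 RIP arrays lie highest for CDKN2D, CCNB1, CDK9 and CCNL2 (brightest probe only) and lowest for CDK2, CCNL1 and CDK11A. The miR-NC input arrays of CDK16 stand apart from each other at 2.38 and 3.33.

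Changes in the input were small beside those in the AGO2 fraction. The input change was called higher for 3 members against 6.57% of all genes and lower for 4 members against 7.53% of all genes, with a median of 0.02 over the members and -0.01 over all genes. CCND3 (0.60), CCNE1 (0.29) and CDK11A (0.29) rose in the input, and CDC25A fell by 0.68, CDKN1C by 0.51, WEE1 by 0.38 and CDC25C by 0.33. CCND3 and CDC25A were called in every fit without 1 array, whereas the other 5 calls were lost without any 1 of the 4 input arrays, at 0.27 to 0.31 for CCNE1, 0.26 to 0.31 for CDK11A, -0.58 to -0.43 for CDKN1C, -0.39 to -0.37 for WEE1 and -0.40 to -0.27 for CDC25C. In RNA from a whole culture, a change in the mRNA of each cell and a change in the share of cells in a phase cannot be told apart. The input changes of 5 proliferation markers (MKI67, PCNA, TOP2A, MCM2 and TYMS) ran from -0.24 to 0.63, and their part in these results was not tested. In the RIP, 7 members were called higher against 28.0% of all genes and 27 lower against 39.4% of all genes, with a median of -0.39 over the members and -0.15 over all genes. CDK9 rose by 2.80 ± 0.05, CCNB1 by 2.05 ± 0.05 and CDKN2D by 1.99 ± 0.04 in the RIP, and CDK11A fell by 1.28 ± 0.05 and CCNL1 by 1.23 ± 0.07.

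**Figure D4:**
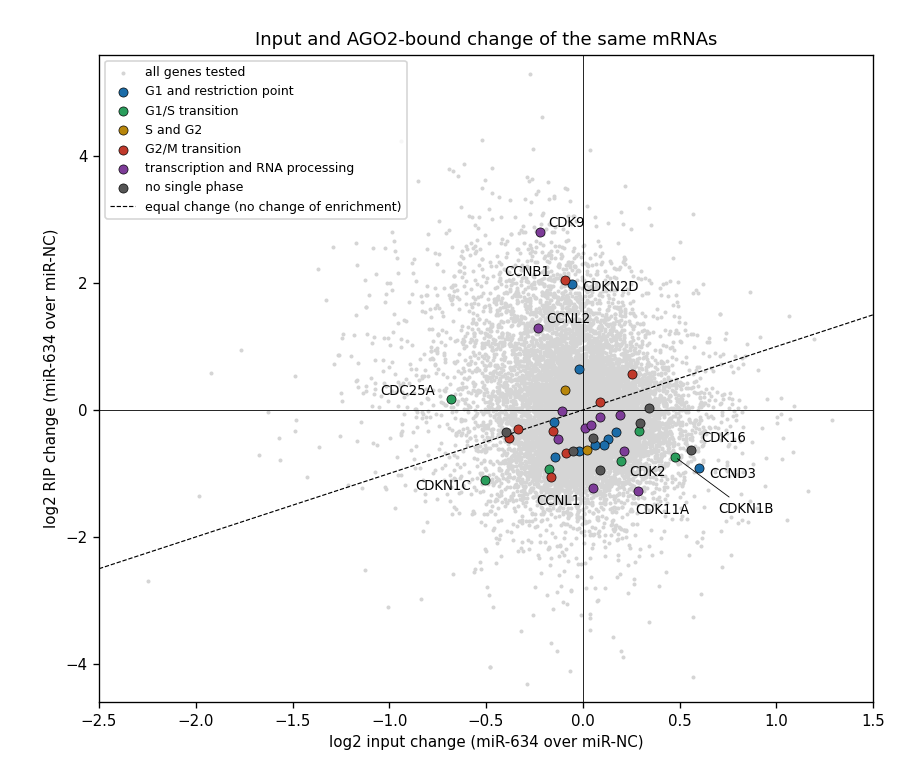
Log2 input change (horizontal) against log2 RIP change (vertical), miR-634 over miR-NC, for all 13663 genes (grey) and the 44 kept genes colored by phase, with names for the 12 members given by array. Points on the dashed line have equal changes and so no change of enrichment. CDK9, CCNB1, CDKN2D and CCNL2 (brightest probe only) lie far above the line near an input change of 0. CDC25A lies left of most members at -0.68, and CCND3 lies right at 0.60 and below the line.

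A further 63 genes of the same machinery had been listed, of which 57 were measured. Their fold change of enrichment was called higher for 15 and lower for 32, against 24.8% and 34.7% of all genes, with a median of -0.46. Among 14 other cyclins, CDKs and inhibitors, 2 rose (against 24.8% of all genes) and 8 fell (against 34.7%). CDK8, the kinase of the Mediator complex, rose by 1.23 ± 0.22 in enrichment and CCNO by 1.14 ± 0.08, and CCNJ fell by 1.30 ± 0.09. In the input, CCNJ rose by 0.81 ± 0.07, CDK19 by 0.62 ± 0.07 and CCNC (cyclin C, partner of CDK8) by 0.51 ± 0.06. CDK8 fell by 0.70 ± 0.16 and CCNP by 0.62 ± 0.14 in the input. CCNP was dim too, at -6.14 and -6.28 on the miR-634 input arrays. CDKN1A (p21, the inhibitor that p53 induces) had levels of -6.37 and -5.74 on the miR-NC input arrays against -4.85 and -4.68 on the miR-634 input arrays. Its input rose by 1.29 ± 0.21 (adjusted p = 0.017, limma) and its enrichment fell by 1.44 ± 0.29 (adjusted p = 0.0076).

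Among 26 partners and turnover factors, 11 rose and 13 fell, beside the same 24.8% and 34.7% of all genes. CKS1B, the small CDK subunit that helps SCF-SKP2 recognize p27, was among those that rose. Its level was 4.32 and 4.29 on the miR-NC input arrays and 3.66 on both miR-NC RIP arrays. In miR-634 cells it stood at 3.28 and 3.29 in the input and 6.23 and 6.20 in the RIP. Its input fell by 1.02 ± 0.04 and its enrichment rose by 3.58 ± 0.06 (adjusted p = 6.2e-06, limma), whereas its relative CKS2 fell by 1.04 ± 0.10 in enrichment. The ubiquitin ligase subunits were divided, as RBX1 (1.52 ± 0.09) rose and CUL1 (-1.84 ± 0.20) and SKP1 (-1.04 ± 0.10) fell. FBXO4, another such subunit, was not well above background on either miR-NC RIP array. Its RIP level was at least 4.19-fold higher in miR-634 cells, with the dim group set at the lowest signal well above background on each array. This bound was not tested. FBXW7, the ligase subunit that recognizes cyclin E, was enriched in both kinds of cells (1.63 and 2.60), with an input that fell by 0.80 ± 0.08. ENSA, which restrains the phosphatase PP2A at mitosis, rose by 2.24 ± 0.10, CABLES2 rose by 1.01 ± 0.15, and HEXIM1, which holds P-TEFb inactive, fell by 1.01 ± 0.18. Of 17 E2F, DREAM and G2/M transcription genes, 2 rose and 11 fell in enrichment, against 24.8% and 34.7% of all genes, with a median of -0.57. E2F5 fell by 1.12 ± 0.12, from 2.50 to 1.38, as its input rose by 0.55 ± 0.08. TFDP1, the DNA-binding partner of the E2F proteins, rose by 1.04 ± 0.25 (adjusted p = 0.015, limma).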

How the data were processed

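RNA of A431 cells was hybridized on 8 one-color Agilent arrays. The deposited files hold spot intensity from Agilent Feature Extraction (12.0.1.1 per the file headers, 9.1 in the submitters' processing notes), background-subtracted and not normalized between arrays. The authors also deposited log2 values from GeneSpring. These matched log2 intensity scaled to the percentile over all probes and then set to a median of 0 for each probe, and served as an alternative.

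Here, spots that were controls or outliers were dropped, those of each of 58201 probes were averaged on the log2 scale, and arrays were scaled to the 75th percentile over the 16808 probes well above background on all 8 arrays. Of 33069 probes with a RefSeq accession, 31094 matched 1 symbol (22434 symbols) in the RefSeq gene table of GRCh38.p14, which also gave the miRNA. A gene with a probe well above background on the 4 input arrays was measured by the brightest such probe. The tests were those of limma 3.58.1 under R 4.3.3 (4 group means in lmFit, eBayes, Benjamini-Hochberg, threshold 0.05), and the scripts were tested on simulated data. Members with a called fold change of enrichment of at least 1, or a called input change of at least 0.5, on the log2 scale are given by array. The members, gene lists and tests were chosen with earlier results of these data known.

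The alternatives were normexp (offset 50, on the median signal), quantile and median scaling, the percentile over all probes, 8 spike-in probes, the authors' values, centering on the median gene, a filter on all 8 arrays or none, probes averaged by gene, an intensity trend, each array left out, a replicate block and the methods' t-test. A slide block was not run, since the 8 arrays shared 1 slide and 1 scan. Tables and plots used Python 3.11.15, pandas 2.3.3 and matplotlib 3.10.9.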

Additional observations from a re-analysis of the deposited data

Results flagged for a closer look

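For 6 members, limma called enrichment in opposite directions in miR-NC and miR-634 cells and called the difference between them, against 11.8% of all genes for which the same held. CDK9 (3.02), CDKN2D (2.04) and CCNL2 (1.53, with 1 of 3 probes) went from below the input to above it, the values being log2 fold changes of enrichment. The miR-NC call of CDK9 below its input (-0.23) was lost when centered on the median gene (-0.03, adjusted p = 0.69, limma), with normexp (-0.12, adjusted p = 0.099) and without either miR-NC input array (adjusted p = 0.053 and 0.054). That of CCNL2 was lost with the mean of its probes (-0.17). CDK11A (-1.56), CCNL1 (-1.29) and CDK2 (-1.0) went from above the input to below it. On the spike-in scale all 6 lay below their input in miR-NC cells, and CCNL2, CDK11A, CCNL1 and CDK2 also in miR-634 cells.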

How the results depend on the processing

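On the spike-in probes, 0 members were called higher and 40 lower in miR-NC enrichment, 5 higher and 33 lower in miR-634 enrichment, 21 higher and 0 lower in the fold change of enrichment, 0 higher (also 0 at an unadjusted p under 0.05 in limma) and 1 lower in the input, and 21 higher and 0 lower in the RIP. Over all 13663 genes on these probes, the same counts were 51 and 13435, 639 and 11586, 8262 and 176, 11 and 485, and 8394 and 431. Signs turned there in miR-NC enrichment for CCND1 (-1.78), CCND3 (-0.60), CDKN2C (-2.06), CCNE2 (-1.77), CDK2 (-2.33), CDKN1B (-0.41), CDKN1C (-0.66), CDC25A (-1.52), CCNA2 (-0.0934), CCNF (-1.20), CCNB1 (-2.26), CCNB2 (-1.77), CDC25B (-1.98), CDC25C (-1.55), WEE1 (-0.0629), PKMYT1 (-0.66), CCNL1 (-2.22), CDK11A (-2.33), CDK10 (-2.37) and CDK16 (-1.31). They turned in miR-634 enrichment for CCND1 (-0.72), CCND3 (-1.01), CDKN1B (-0.52), CDKN1C (-0.16), CCNB2 (-1.25), CDC25B (-0.57), CDC25C (-0.41) and CCNL2 (-0.51), and in the RIP change, computed for the 12 members given by array, for CDK2 (0.0529) and CDKN1B (0.12). The fold change of enrichment turned for CDK6 (0.58), CDKN2A (0.51), CDKN2C (0.48), RB1 (0.50), RBL1 (0.43), RBL2 (0.48), CCNE1 (0.47), CCNE2 (0.34), CDK2 (0.10), CDKN1C (0.50), CCNA2 (0.45), CCNB2 (0.52), CDKN3 (0.20), CDK7 (0.82), CCNK (0.24), CDK10 (0.83), CCNI (0.51) and CDK5 (0.61). Of these, only CDK7 and CDK10 were called as rises by limma. CCND3, CCNL1, CDK11A, CDKN1B and CDK16 stayed below 0 without a call. The rises of CDK9, CCNB1, CDKN2D, CCNL2 (brightest probe), CDC25A and CDK4 were called on that scale too. Elsewhere, miR-NC enrichment turned for RBL1 (0.0918) and CDK12 (0.15) with normexp and for CDK13 (0.0400) with the mean of the probes. Input rises numbered 6 with normexp and the intensity trend, 5 when centered and with the mean of the probes, and 7 with the 8-array filter. They numbered 1 with the percentile over all probes, the authors' values and no filter. Over all genes, the rises numbered 1166 with normexp, 1261 with the intensity trend, 977 when centered and 753 with the mean of the probes. With the 8-array filter they numbered 1267 of 10959. The percentile over all probes gave 536, the authors' values 539 and no filter 366 of 22434. Input falls numbered 1 with the percentile over all probes and the authors' values, 2 without a filter and 7 with the intensity trend. Over all genes, the falls numbered 432 with that percentile, 435 in the authors' values, 570 of 22434 without a filter and 1380 with the intensity trend. With single arrays left out, input rises ran from 1 to 4 and input falls from 1 to 5. The methods chose enriched genes by a fold cutoff, and their general t-test was run here on RIP minus input by replicate number. At its own threshold that test gave 6 rises and 20 falls of enrichment, and 6 and 18 after Benjamini-Hochberg. Over all genes it gave 2994 and 3959, and 2276 and 2695 after Benjamini-Hochberg. The replicate numbers did not pair the arrays (correlations of deviations from -0.04 to 0.05). With the replicate block, 8 members rose and 21 fell in enrichment, beside 3316 and 4611 of all 13663 genes. The cause of these moves was not tested. Precision is limited by 2 arrays a group and, for CDK12, CCNG2 and CDK17, by signal near background. For CDKN1A, it is limited by a dim miR-NC input, and for CDK8 and CCNP by dim input and miR-NC RIP signals.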
